A study of Mus musculus with 12 samples.

Results

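RNA from heavy polysomes was compared with RNA from light polysomes in the livers of 2 wild-type mice kept for 24 h on a ketogenic diet, whose energy comes mostly from fat with little carbohydrate. The libraries were chosen by their labels, and 4 of the 12 libraries in the series belong to these 2 animals: a heavy and a light library each. All animals were male C57BL/6 mice. The rest of the series is 3 wild-type mice on chow (6 libraries) and 1 chow-fed mouse with the S209A change on both eIF4E alleles. The wild-type chow mice were used to test whether a difference between pools depends on diet. The S209A mouse was not compared with any group. Its libraries, like those of chow, entered alternative fits that took the spread from all groups. Per the labels' protocols, each liver was run on a sucrose gradient, fractions 2 to 7 and fractions 8 to 13 were combined into 2 pools, and a stranded kit for total RNA was given 10 ng of each pool. The labels do not say which of these ranges is the heavy pool. They also give a time of 0 h where the protocol gives 24 h of diet, and that time label was set aside.

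Ribosomes load onto an mRNA one after another, and an mRNA carrying many of them sediments further into a sucrose gradient than one carrying few. The number of ribosomes on an mRNA depends on how often translation starts, how fast it runs and how long the coding sequence is, so heavy over light is a ratio of positions in the gradient and not a rate. Liver makes most plasma proteins, and on a diet poor in carbohydrate its fatty acid oxidation feeds the synthesis of ketone bodies. In male mice the liver also secretes major urinary proteins (MUPs), small lipocalins that leave with the urine and carry pheromones.

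The 4 libraries held 13263355 (animal 1, heavy), 9605716 (animal 1, light), 9146545 (animal 2, heavy) and 8727270 counts (animal 2, light). Nuclear protein-coding genes held between 4.09% and 6.61% of them, which is 356544 to 742129 counts. Mitochondrial ribosomal RNA took 47.3% and 37.6% of the heavy and light library of animal 1, and 74.2% and 51.8% in animal 2. The most counted ID, which has no symbol here, took 15.9% of the heavy library of animal 2 and 39.9% to 50.4% of the other 3. The heavy library of animal 2 thus stood apart in its makeup. Hepatocyte markers reached summed levels of 2300 to 3020 CPM (CPM, the count rate relative to library sizes that were scaled by TMM, the trimmed mean of M values), those of sinusoidal endothelium 67.8 to 92.4, of Kupffer cells 27.3 to 35.9 and of stellate cells 20.5 to 34.2. Markers of cholangiocytes, neutrophils and exocrine pancreas stayed at or below 1.01 CPM in every library. Of the 7402 genes with at least 10 counts in 2 or more of the 4 libraries, the median gene had 12 counts in its lowest library.

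The genes lower in the heavy pool were led by MUP genes, a tandem family of near-identical copies on mouse chromosome 4, together with hemoglobin chains and glutathione transferase P genes. The stretches around a TATA-like motif in their promoter windows are shown because they let a reader see how alike the copies are in this window, which says nothing about their transcripts. In RefSeq's promoter windows (250 bases before to 50 after the annotated start, GRCm38.p6), 13 of 14 MUP windows held TATATAA on the gene's own strand or the other, 12 of them among 13 windows of tested MUP genes. The same letters were found in 1.81% of the windows of 5741 tested genes and in 3.84% of all 27025 windows of the same 300 bases. The window of Mup7 held no match. The capitals mark TATATAA in the MUP genes and CATATAA in the α-globin genes, in the 30 bases printed for each gene, at chr4:61303964-61303993 (Mup14), chr4:60582163-60582192 (Mup10) and chr4:62087306-62087335 (Mup3) on the minus strand, chr4:60003445-60003474 (Mup6) on the plus strand, and chr11:32283636-32283665 (Hba-a1) and chr11:32296453-32296482 (Hba-a2) on the plus strand.
Mup14: cagagagTATATAAggacaagcaaaggggc
Mup10: cagagatTATATAAggacaagcaaaggggc
Mup3: cagagagTATATAAggacaagcaaaggagc
Mup6: cagagagTATATAAagacaagcaaaggagc
Hba-a1: tggagggCATATAAgtgctacttgctgcag
Hba-a2: tggagggCATATAAgtgctacttgctgcag
The stretches of Mup2, Mup9, Mup11, Mup15, Mup17, Mup18 and Mup19 had 0 differences from that of Mup14, those of Mup10 and Mup3 differed from it at 1 base as did that of Mup21, that of Mup6 at 2 and that of Mup4, which was not tested, at 4. In Mup14 the motif begins 12 bases after the annotated start. The stretches of the α-globin genes Hba-a1 and Hba-a2 had 0 differences. A match of letters is a description of the window and nothing more.

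Heavy was set against light with edgeR's quasi-likelihood test, the animal as a block, and Benjamini-Hochberg adjustment over all genes tested (threshold 0.05). Of 7402 genes, 11 passed (0.149%): 10 were lower in the heavy pool (0.135%) and 1 was higher (0.0135%). At an unadjusted p under 0.05, 203 genes were higher (2.74%) and 177 lower (2.39%), together 5.13% of the genes tested. With 2 pairs the model has 1 residual degree of freedom, and a permutation test of a single gene could not go below p = 0.5. In every sentence below, an error after a log2 value is its standard error from this fit and an adjusted p is from it. Without the block the test passed 0 genes. It also passed 0 with both animals and the block kept but the spread taken from all 12 libraries. A single pair could be fitted only with the spread of the other groups, so leaving out an animal cannot show whether the calls needed both. With library totals as the scaling 1 passed, with limma-voom 48, and 0 among the 1013 genes with at least 50 counts in every library. The labels do not say whether the animals shared a litter or a day.

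Mup7 had the lowest adjusted p. Its RNA stood at 5.56 CPM in the heavy and 53.1 in the light pool of animal 1 (76 and 600 counts), and at 35.2 and 309 CPM in animal 2 (387 and 1836 counts). Both light pools lay above both heavy pools, and the log2 ratio of heavy to light was -3.21 and -3.13 in the 2 animals (fitted -3.19 ± 0.32, edgeR adjusted p = 4.92e-06). Mup14 stood at 18.1 against 48.8 CPM in animal 1 and 29.4 against 245 in animal 2 (fitted -2.25 ± 0.36, adjusted p = 0.00309). Mup15 stood at 7.17 against 20.7 CPM and 10.6 against 128 (fitted -2.58 ± 0.41, adjusted p = 0.00309). The groups did not overlap for either gene, and the drop was larger in animal 2. Mup11 (fitted -2.0 ± 0.35, adjusted p = 0.007) and Mup22 (-1.49 ± 0.31, adjusted p = 0.0491) also passed.

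The MUP list, which runs to Mup21 and does not hold Mup22, leaned the same way. Of 21 listed members 19 were tested, all 19 had a negative log2 ratio in both animals, 9 were at least 2-fold lower in both, and 4 passed. All genes together were lower in both animals in 25.7% of cases and 2-fold lower in both in 2.26%. The median log2 ratio of the list was -0.84 in animal 1 and -2.69 in animal 2, beside 0.01 and 0.04 for all genes tested. Mup9 (-1.94 ± 0.41, adjusted p = 0.0531) and Mup17 (-2.16 ± 0.48, adjusted p = 0.0788) missed the threshold. Mup3 and Mup20 were alike in the animals, with log2 ratios of -1.25 and -1.23 for Mup3 and -1.21 and -1.22 for Mup20, and did not pass (adjusted p = 0.177 and 0.268).

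Because reads can fall on several MUP copies, the copies were also summed, an alternative chosen after the data were seen. The summed family held 0.462% of nuclear protein-coding counts in the heavy and 0.936% in the light pool of animal 1, and 0.605% and 3.15% in animal 2. The light pool of animal 2 was thus the richest in MUP RNA by a wide margin. The fitted log2 ratio of the sum was -1.86 ± 0.34 (edgeR adjusted p = 0.011). How reads were shared between the members was not tested, so they cannot be taken as 19 independent measurements.

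Hemoglobin RNA, which marks red blood cells and their precursors, was lower in heavy pools. Hba-a2, an α-globin chain, had 23 and 103 counts in the heavy and light pool of animal 1 and 27 and 117 in animal 2 (fitted log2 ratio -2.72 ± 0.44, edgeR adjusted p = 0.00309). Hbb-b1, a β-globin chain, had 17 and 60, then 22 and 89 (-2.51 ± 0.50, adjusted p = 0.0373). Hba-a1 (-2.04 ± 0.52, adjusted p = 0.177) and Hbb-bs (-1.83 ± 0.59, adjusted p = 0.542) did not pass, and Alas2, the first enzyme of erythroid heme synthesis, stood at -0.66 ± 0.84. All 5 tested erythroid markers were lower in both animals, as were 25.7% of all genes, with a median of -1.93 and -2.01. Alas2 had 16 and 16 counts, then 18 and 20, so its lower ratio rested mostly on the scaling. The other 4 are globin chains with alike copies, between which reads could have been shared. Summed, the globin chains had a fitted ratio of -2.35 ± 0.34 (edgeR adjusted p = 0.000558). This sum was also chosen after the data were seen, for a family with called genes, so its p is no separate support. The summed level of the erythroid markers matched here was 5.85 and 22.3 CPM in animal 1 and 11.4 and 59.6 in animal 2, and 2 of these markers were at 0 in all 4 libraries. For a level in bulk liver, fewer cells of a type and less RNA per cell cannot be told apart. The 2 pools of an animal come from the same liver, and why hemoglobin RNA was lower in heavy pools was not tested.

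The remaining genes lower in heavy pools were glutathione transferase and alcohol dehydrogenase loci. Gstp1, a glutathione transferase that joins glutathione to reactive compounds, had 32 and 113 counts in animal 1 and 40 and 127 in animal 2 (fitted -2.32 ± 0.41, edgeR adjusted p = 0.00858). Its pseudogene Gstp-ps had 108 and 559, then 247 and 442 (-2.18 ± 0.34, adjusted p = 0.00309). The 2 share sequence, so reads could have been placed on either, and with all Gstp copies summed the ratio was -2.10 (edgeR adjusted p = 0.000558). As with the globin chains, the sum was chosen after the data were seen and is no separate support. Adh6-ps1, an alcohol dehydrogenase pseudogene, had 0 counts in both heavy pools and 49 and 35 in the light pools, which is at least 19.8-fold lower in animal 1 and at least 21.6-fold lower in animal 2 against a floor of 3 counts per library (adjusted p = 0.00309). It met the count filter only through the light pools, so that it had to differ to be tested.

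Eppk1 alone passed in the other direction. It encodes epiplakin, a very large protein that binds keratin filaments. Its RNA stood at 12.1 and 3.01 CPM in the heavy and light pool of animal 1 (166 and 34 counts) and at 14.0 and 3.03 in animal 2 (154 and 18 counts). The heavy pools lay above the light pools in both animals (fitted log2 ratio 2.10 ± 0.43, edgeR adjusted p = 0.0417). With near-identical copies summed, Eppk1 no longer passed. Nor did it pass with TMM from nuclear protein-coding genes or with upper-quartile scaling, where 0 genes were called higher in heavy pools. A list of 47 genes for very large proteins, chosen after values were seen, had 25 of 46 tested members higher in both animals and 7 lower, with a median of 0.15 and 0.26, and only Eppk1 passed. For all genes, 27.6% were higher in both.

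**Figure D1:**
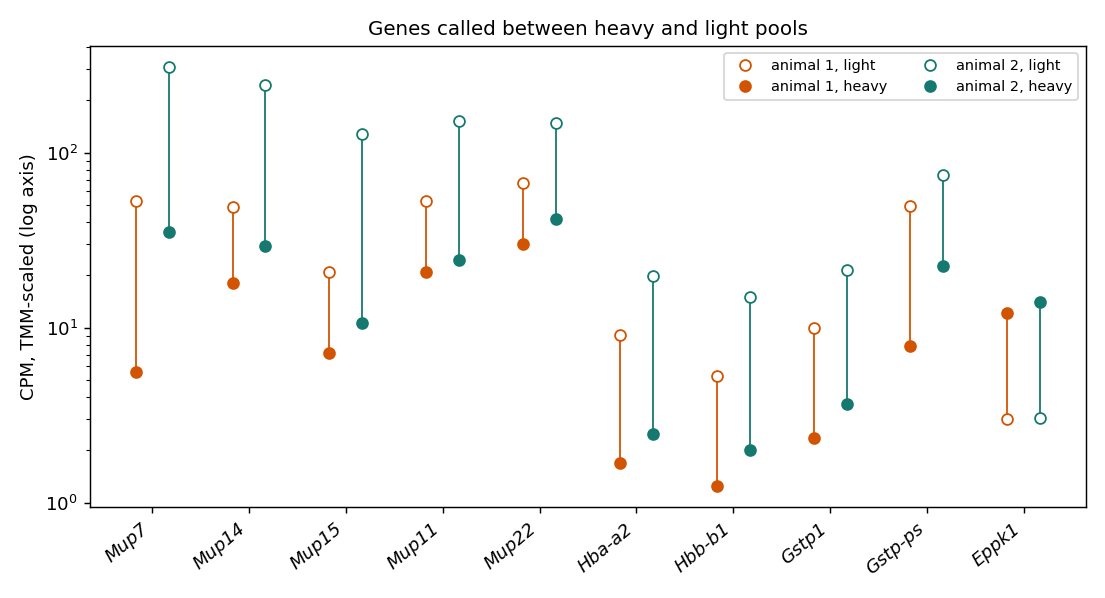
Level of 10 genes that passed between heavy and light pools, in CPM on a log axis, with open circles for light and filled circles for heavy pools, joined within each animal. In both animals the light pool is the higher one for 9 genes, from Mup7 to Gstp-ps, and the heavy pool for Eppk1; Adh6-ps1 is not drawn because its heavy pools held 0 counts.

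Agreement between the animals was weak over all genes tested, the called ones included. Of the 7402 genes, 53.3% had the same direction in both animals, and Pearson's r between their log2 ratios was 0.0892 across genes, which share libraries and are not independent replicates. Among the 1851 genes with the highest average levels r was 0.183 and 57.5% had 1 direction. Among the same genes r between chow 1 and chow 2 was 0.613. The spread of log2 ratios across genes was wider in animal 2 (SD 1.26) than in animal 1 (SD 0.861), and the light library of animal 2 had the fewest protein-coding counts. In all, 262 genes were at least 2-fold higher in both animals (3.54%) and 167 at least 2-fold lower (2.26%), a count that carries no test.

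**Figure D2:**
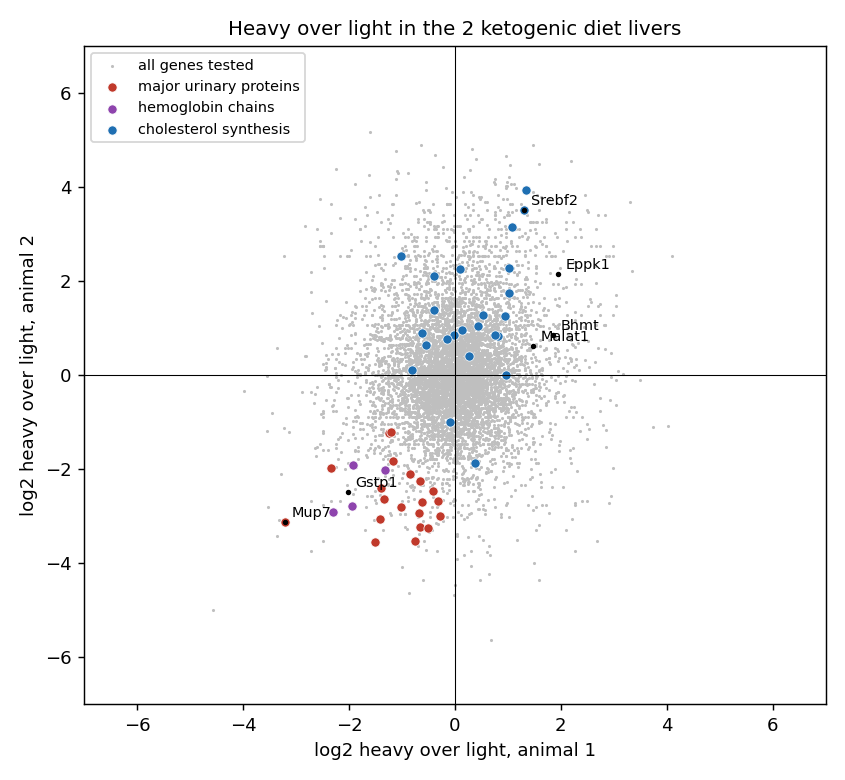
Log2 ratio of heavy to light in animal 1 (x axis) against animal 2 (y axis) for the 7402 genes tested, with MUP genes in red, hemoglobin chains in purple, cholesterol synthesis genes in blue and 6 genes named. The grey cloud shows little relation (r = 0.0892 across genes), the MUP and hemoglobin genes lie in the lower left, and most cholesterol synthesis genes lie above 0 for animal 2.

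Among the genes higher in heavy pools, 11 filled the rule for named genes without passing the test. Bhmt, which remethylates homocysteine with betaine, had the highest counts of the enzymes: 154 and 42.4 CPM in animal 1 and 356 and 197 in animal 2 (fitted 1.35 ± 0.31, edgeR adjusted p = 0.101). Malat1, a long noncoding RNA that stays in the nucleus, stood at 3910 and 1400 CPM in animal 1 and 1430 and 936 in animal 2 (1.05 ± 0.31, adjusted p = 0.362). Cyp2a5, a cytochrome P450, had log2 ratios of 1.61 and 0.75. Il1r1, the interleukin 1 receptor, had 100 and 27 counts in animal 1 but 45 and 2 in animal 2. Thrsp, a lipogenic regulator, had 65 and 18, then 60 and 0. The size of the ratio in animal 2 thus often rested on very few light counts. Rusc2, Sema4g, Atg2b, Vps37b and Slco1a4, an organic anion transporter, had fitted values between 1.17 (Sema4g) and 2.15 (Vps37b).

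Cholesterol synthesis genes were the metabolic list with the highest median over the mean of both animals (0.74). Srebf2, the transcription factor that turns the pathway on, stood at 9.88 and 3.89 CPM in the heavy and light pool of animal 1 and at 7.73 and 0.505 in animal 2, the last from 3 counts (fitted log2 ratio 2.22 ± 0.57, edgeR adjusted p = 0.177). Sqle, the squalene epoxidase, had 87 and 27 counts, then 30 and 0. Hmgcs1, which acts early in the pathway, stood at 19.0 and 10.7 CPM, then 12.1 and 6.73 (0.83 ± 0.36). Of 24 tested members, 13 were higher in both animals, 1 was lower in both and 5 were at least 2-fold higher in both. By edgeR 0 passed, and 6 reached an unadjusted p under 0.05. Among all genes tested, 27.6% were higher in both animals, 25.7% lower in both and 3.54% at least 2-fold higher in both. An unadjusted p under 0.05 was reached by 2.74% upward and 2.39% downward. These shares are the background for the lists below as well. The median was 0.32 in animal 1 and 1.0 in animal 2.

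Gluconeogenesis genes had 12 of 17 tested members higher in both animals (median 0.33 and 0.28), with Slc37a4, the glucose-6-phosphate transporter, at 0.88 ± 0.44 and Foxo1 at 0.80 ± 0.44. The 1 member lower in both was Pck1, with log2 ratios of -0.27 and -0.31. Amino acid catabolism genes had 18 of 40 higher and 5 lower in both (median 0.25 and 0.20). Among those higher were Prodh, which opens proline breakdown, at 0.93 ± 0.37 and Mccc1, of leucine breakdown, at 1.41 ± 0.64. Of 8 tested urea cycle genes, 4 had a positive and 4 a negative fitted ratio, and 4 were higher and 1 lower in both animals. Cps1 (0.46 ± 0.28) and Asl (0.63 ± 0.30) were among those higher in both. By edgeR 0 members of these 3 lists passed, and 0 of gluconeogenesis, 6 of amino acid catabolism and 1 of the urea cycle reached an unadjusted p under 0.05.

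Lists of fat burning genes, which the diet addresses, had medians near 0, though single genes lay further off. Cpt1a, which admits fatty acids into mitochondria, had a fitted ratio of 0.27 ± 0.29, and Cyp4a14, a fatty acid ω-hydroxylase, of -0.20 ± 0.29. Pck1, the entry enzyme of gluconeogenesis, had -0.29 ± 0.28. Lower values were seen for Acot1, an acyl-CoA thioesterase (-1.50 ± 0.42, adjusted p = 0.311), Fabp1, the liver fatty acid carrier (-1.20 ± 0.31, adjusted p = 0.177), and Acsl1 (-0.68 ± 0.32). Ketogenesis genes had medians of -0.23 and 0.13, β-oxidation genes of -0.25 and -0.09, and peroxisomal and ω-oxidation genes of -0.17 and -0.21. Of 22 tested peroxisomal and ω-oxidation genes, 14 were lower and 2 higher in both animals. For β-oxidation it was 8 and 4 of 18, and for ketogenesis 4 and 4 of 11. By edgeR 0 genes were called in these 3 lists, with 0, 1 and 2 (ketogenesis, β-oxidation, peroxisomal) at an unadjusted p under 0.05, beside 5.13% of all genes.

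Secreted plasma proteins had medians slightly below 0. Of 44 tested, 30 were lower in both animals and 1 was higher in both, beside 25.7% and 27.6% of all genes. The medians were -0.36 and -0.35. By edgeR 0 passed, while 4 reached an unadjusted p under 0.05 downward and 1 upward, beside 2.39% and 2.74% of all genes. Alb stood at 600 and 716 CPM in animal 1 and 892 and 853 in animal 2. Apoa1, the main protein of HDL, stood at 730 and 953, then 681 and 883 (-0.38 ± 0.28), and Apob at 439 and 628, then 423 and 580 (-0.49 ± 0.28). Serpina1e, an α1-antitrypsin copy, had -1.35 ± 0.31 (adjusted p = 0.101), and Ttr -0.56 ± 0.30. Apoa4 went the other way (0.77 ± 0.31, adjusted p = 0.828). Of 27 ER translocation and folding genes, 13 were lower in both animals (median -0.15 and -0.51), among them Spcs2, of the signal peptidase, at -1.50 ± 0.54.

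Drug-metabolising enzymes, the P450, UGT and sulfotransferase genes that clear foreign compounds, had 21 of 39 tested members lower in both animals and 8 higher in both, with medians of -0.30 and -0.39. None passed by edgeR, and 11 reached an unadjusted p under 0.05 downward against 3 upward. The shares over all genes were 25.7% lower and 27.6% higher in both animals, and 2.39% downward and 2.74% upward at that p. Cyp2c67 had 45 and 105 counts in animal 1 and 40 and 54 in animal 2 (-1.41 ± 0.45, adjusted p = 0.534). Ugt2a3 had log2 ratios of -2.29 and -0.52. Slco1a1, an organic anion transporter of the bile acid list, had 33 and 320, then 69 and 66 counts (-2.18 ± 0.50, adjusted p = 0.101). Csad, of taurine synthesis, had 66 and 227, then 65 and 94 (-1.74 ± 0.38, adjusted p = 0.0683). The antioxidant genes Park7 (-1.77 ± 0.47, adjusted p = 0.22) and Gpx1 (-1.05 ± 0.29, adjusted p = 0.311) had similar ratios in the 2 animals. Their list of 25 tested genes had 8 higher and 9 lower in both animals, with medians of 0.00 and -0.30.

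Lists of the translation machinery differed in how far their medians lay from 0. Of 79 cytosolic ribosomal protein genes 33 were tested, 9 higher and 7 lower in both animals, with medians of 0.06 and -0.09. Rps20 had 79 and 19, then 52 and 13 counts (1.46 ± 0.59), while Rpl8 stood at -0.69 ± 0.36 and Eef2, the translocation factor, at -0.52 ± 0.30. Translation factors whose mRNA starts with a TOP motif, a run of pyrimidines, had medians of 0.19 and 0.22, initiation factors of -0.11 and -0.09, and genes with regulatory upstream reading frames of 0.28 and 0.32. By edgeR 0 genes passed in these 4 lists, and 1 reached an unadjusted p under 0.05. Aminoacyl-tRNA synthetases had medians of -0.09 and 0.54 (17 tested), and mitochondrial ribosomal proteins of 0.06 and -0.60 (43 tested), with 0 called and 0 and 3 at an unadjusted p under 0.05. Eif4e, the cap-binding protein, had 22 and 4, then 12 and 2 counts (fitted 1.93 ± 1.5, edgeR adjusted p = 0.995). It met the count filter only through the heavy pools, so that it had to differ to be tested. Mknk1, a kinase for eIF4E, had 406 and 23 in animal 1 but 24 and 29 in animal 2, so that the animals disagreed.

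Mitochondrial and nuclear RNAs serve as a check on what the pools hold. Of the 13 mitochondrially encoded mRNAs, which are translated on mitochondrial ribosomes, 9 were lower in both animals (median -0.48 and -0.08). For all genes that share was 25.7%. COX3 stood at 18.9 and 37.2 CPM in animal 1 and 24.5 and 53.4 in animal 2, and COX1 at 494 and 513, then 613 and 612. Among 13 tested nuclear or untranslated RNAs, 7 were higher in the heavy pool of both animals, 3 at least 2-fold, with medians of 0.55 and 0.10. The shares over all genes were 27.6% and 3.54%. By edgeR 0 of them passed, and 5 reached an unadjusted p under 0.05. Kcnq1ot1, a nuclear antisense RNA, had 210 and 66, then 30 and 6 counts, and Rnu1b1, a U1 spliceosomal RNA, 50 and 16, then 77 and 20. Small or structural RNAs as a class went the other way, with 35 of 71 lower in both animals and 11 higher in both (medians -0.70 and -0.12). The part of these RNAs in the results above was not tested.

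**Figure D3:**
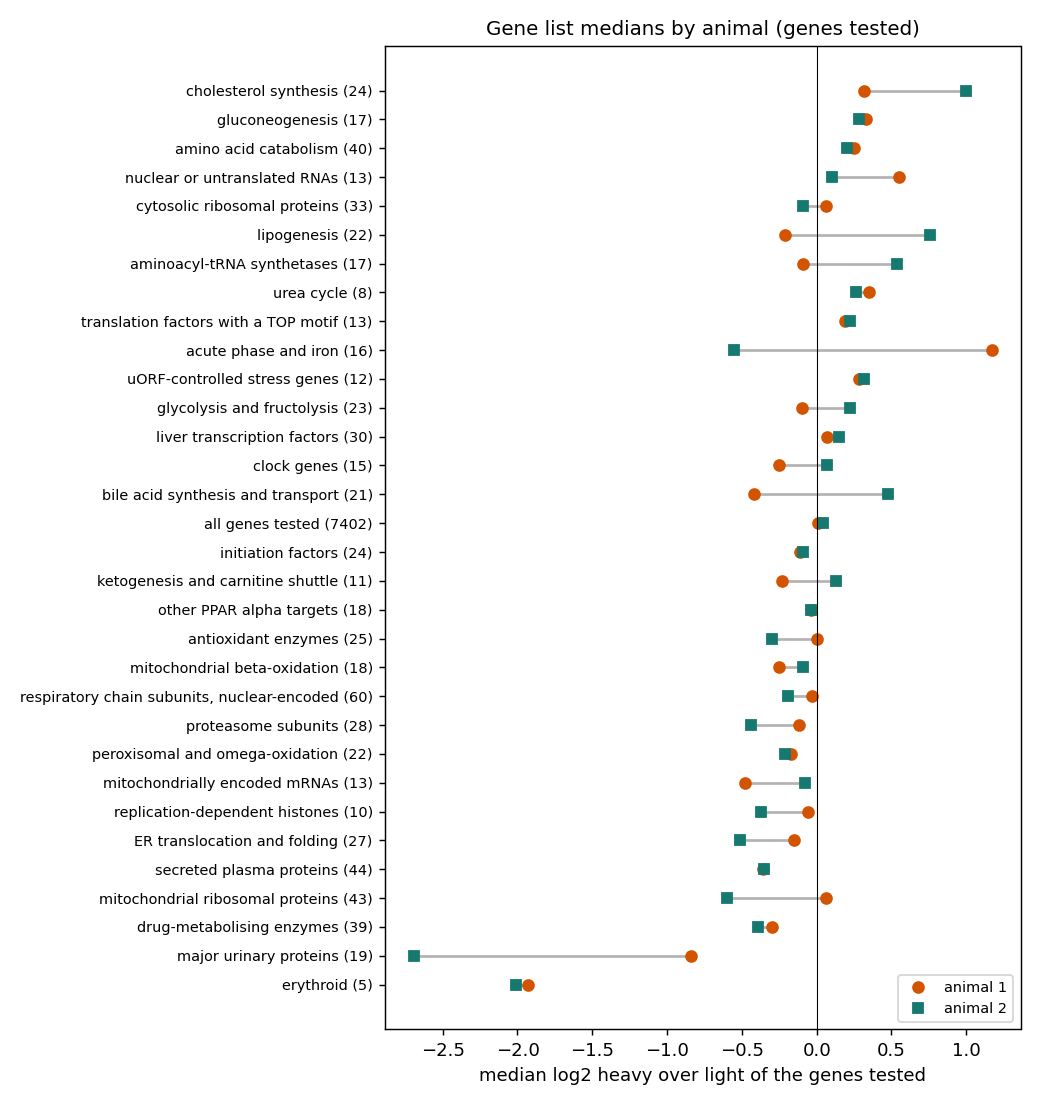
Median log2 ratio of heavy to light in animal 1 (circles) and animal 2 (squares) for each gene list, with the number of genes tested in brackets. The erythroid and MUP lists lie lowest of those drawn in both animals, while the highest is the acute phase list in animal 1 (1.17, against -0.55 in animal 2) and cholesterol synthesis in animal 2.

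Whether the ratio of heavy to light differed from that in chow livers was tested as the interaction of pool and diet over the 10 wild-type libraries. With edgeR, 1 of 7402 genes passed (0.0135%), the pseudogene Gm13498 (keto minus chow -3.87, adjusted p = 0.026). The result turned on chow 3. Without that animal, 126 genes passed (1.70%), of which 107 were lower in keto (1.45%) and 19 higher (0.257%); without chow 1 or without chow 2, 0 passed, with 214 and 223 at an unadjusted p under 0.05. The headers of chow 1 and chow 2 name Bowtie2 alignments and those of chow 3 HISAT2, and the headers of the keto libraries name a read file only. Diet and processing cannot be told apart. The makeup of the pools also differed between the chow animals. For chow 1, mitochondrial ribosomal RNA took 16.7% of the heavy library but 58.2% of the light one. Chow 2 had a similar gap, 12.9% against 52.6%, whereas the pools of chow 3 were alike (13.8% heavy, 13.5% light). How far this makeup shaped the ratios of the chow animals was not tested.

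MUP genes show how far the chow animals differ. The family's median log2 ratio was 1.80 in chow 1, 1.10 in chow 2 and -0.73 in chow 3, beside -0.84 and -2.69 in the keto animals. Without chow 3, 17 of 19 tested members passed the edgeR interaction test, and with it 0 did. For Mup7 the ratios in chow were 2.09, 1.10 and -4.71, so chow 3 lay below both keto animals. Hamp, the iron hormone hepcidin, ran the same way, at 3.87, 2.04 and -1.13 in chow and -0.97 and -0.53 in keto. Eppk1 was higher in the heavy pool in all 5 animals, with 1.38, 0.95 and 1.38 in chow and 1.95 and 2.14 in keto, and its interaction did not pass (adjusted p = 0.825). Bhmt was likewise positive in all 5 (1.39, 0.86 and 1.90 in chow).

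Malat1 had log2 ratios of -1.84 and -0.69 in chow 1 and chow 2 and 0.75 in chow 3, while the keto animals had 1.48 and 0.61. The nuclear RNA list had medians of -2.11, -1.36 and -0.00 in chow. Secreted plasma proteins had medians of 1.21, 0.76 and 0.12 in chow, each above both keto animals, and drug-metabolising enzymes 1.05, 0.73 and -0.21. Among the 1851 genes with the highest levels, r between keto 1 and chow 3 was 0.399 and between keto 1 and chow 1 -0.19.

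**Figure D4:**
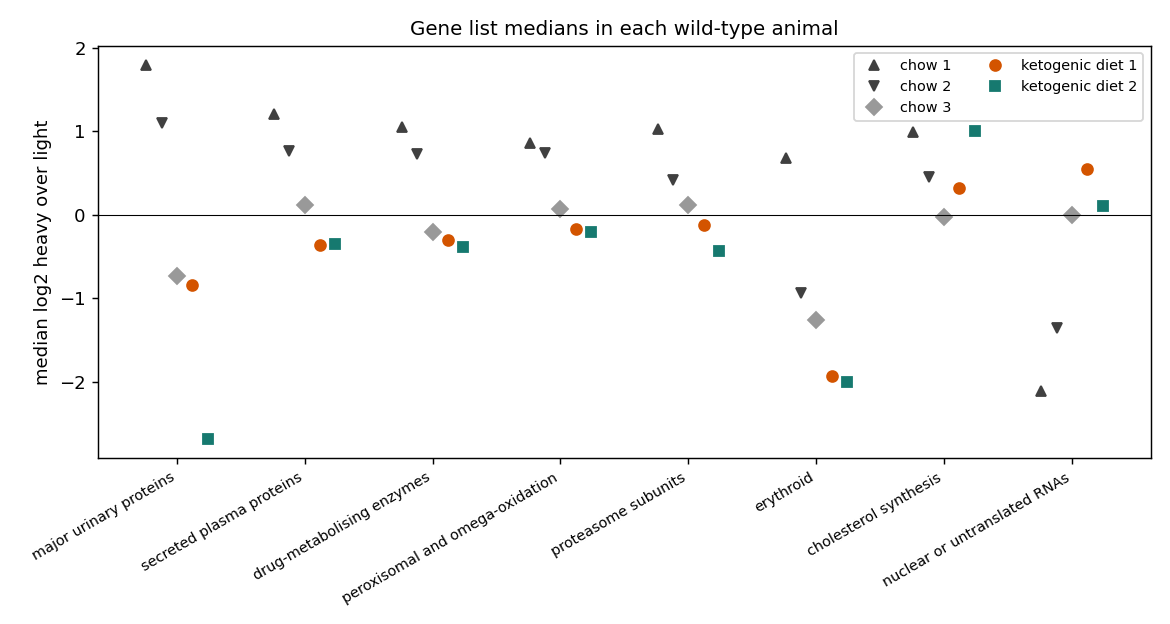
Median log2 ratio of heavy to light of 8 gene lists in each of the 5 wild-type animals. Chow 1 and chow 2 lie above the keto animals for MUP genes, plasma proteins and drug-metabolising enzymes, and chow 3 lies below chow 1 and chow 2 for these lists.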

How the data were processed

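Per the file headers and values, the authors deposited 1 table of raw read counts for each library, with Entrez gene IDs as rows. Tools named by the submitters' processing notes are Trimmomatic, HISAT2 and StringTie. The counting tool and its strand and multi-mapping settings were not given in the sources used, so antisense genes and near-identical copies are uncertain. Of 27179 IDs, 25275 matched RefSeq (GRCm38.p6) and 1904 stayed unnamed. The counts were tested in R 4.3.3 with edgeR 4.0.16 (quasi-likelihood, TMM, two-sided), with DESeq2 1.42.0 and limma 3.58.1 as alternatives. The fit was also run on counts simulated with a fixed spread and no difference between animals. That run cannot show how the fit fares with the spread of these livers. The log2 ratios of single animals used a prior count of 2. Named genes were up to 12 per direction by size or smallest p, up to 3 per list and a fixed set of 26. The members and lists were chosen with earlier results of these data known. Heavy and light pools are paired within an animal by their labels, and their deviations correlated at r = 0.115 across genes. Standard errors come from the quasi-likelihood fit and include the spread between the pairs as it estimated it. Floors cover counting error only. Unused columns numbered 0. Some of the genes the rule picked are not reported here.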

Additional observations from a re-analysis of the deposited data

Results flagged for a closer look

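Gm13498, a pseudogene, had a lower ratio of heavy to light in keto than in chow animals (-3.87 on the log2 scale), and edgeR's interaction test passed for it. For 7 gene lists, the medians of both keto animals lay on the opposite side of 0 from those of all 3 chow animals. These differences between lists were not tested. The median of the mean over both keto animals was -0.32 for secreted plasma proteins, -0.33 for hepatocyte markers and -0.26 for peroxisomal and ω-oxidation genes. It was -0.24 for proteasome subunits, -0.16 for nuclear-encoded respiratory chain subunits and 0.13 for stress genes controlled by upstream reading frames. For initiation factors it was 0.01, although the medians of the single keto animals were -0.11 and -0.09. Chow 3 lay close to 0 for initiation factors (0.01) and the respiratory chain (0.02). With library totals as the scaling, the keto medians of the respiratory chain and the proteasome changed sign.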

How the results depend on the processing

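Depth was limited: of 7402 genes tested, 1013 had at least 50 counts in all 4 keto libraries. For keto heavy over light, 11 genes passed in the reported edgeR test. TMM from protein-coding genes gave 8, upper-quartile scaling 9 and DESeq2 12 of 1949. Library totals gave 1, limma-voom 48 (10 of them among the 11), no filter on low counts 30 (all 11 among them), the filter of 50 counts 0 (68 at an unadjusted p under 0.05), and copies summed 4. Without the replicate block 0 passed, and with the spread of all 12 libraries 0 (299 at an unadjusted p under 0.05 for each). Leaving out a keto animal meant that the lone pair was assumed to vary like the other groups, so its calls are not given. For the interaction, 1 gene passed; DESeq2 gave 8, the filter of 50 counts 0, leaving out an animal 0 to 126, and a replicate block across diets 228. Same-numbered chow and keto animals did not deviate together across genes (r = -0.0339 in heavy and -0.0689 in light pools). Even the heavy and light pools of the same keto animals reached only r = 0.115. These values therefore cannot show whether same-numbered animals shared a day or a run. The count of 429 genes at least 2-fold in both animals became 272 at a prior count of 5 and 10 at the filter of 50 counts. Library totals moved the median of all genes from 0.03 to 0.31, and turned the values of Alb (0.22), COX1 (0.29), Cyp4a14 (0.11) and Pck1 (0.02). They also turned the medians of β-oxidation (0.15), other PPARα targets (0.27), respiratory chain (0.13), proteasome (0.06), histone (0.01) and mitochondrially encoded genes (0.03). The filter of 50 counts turned Alb (0.05), COX1 (0.12), initiation factors (-0.03), PPARα targets (0.08) and all genes (-0.03); upper-quartile scaling turned initiation factors (-0.00), and no filter COX1 (0.00). Leaving out a keto animal gave -0.28 to 0.03 for Alb and -1.19 to 3.84 for Mknk1, with the lower Mknk1 value from animal 2 alone. The cause was not tested.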
